A study of Mus musculus with 8 samples.

Results

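The E2F family of transcription factors and the RB pocket proteins were described in hematopoietic stem cells (HSCs) that had lost Mitol and in control HSCs. The genes were taken by symbol from the table of read counts as E2f1 to E2f8, Rb1 and Rbl1, which gave 10 of 22065 named genes, and all 10 passed the filter on low counts. The study sorted HSCs (CD150+ CD48- EPCR+ Lineage-) from bone marrow of C57BL/6 mice aged 8 to 10 weeks and made RNA-seq libraries from 100 cells each, 4 from the Mitol knockout (Mitol KO) mice, here called MitolΔ/Δ, and 4 from control mice. The paper's gate for long-term HSCs also takes CD117 (c-Kit) positive cells. MitolΔ/Δ mice carried MitolFlox/Flox with MX1-cre and controls were MitolFlox/Flox littermates without cre. Both received Poly:IC, a double-stranded RNA mimic that switches on the interferon-responsive Mx1 promoter, and cells were taken 1 week later. Every library therefore comes from Poly:IC-treated animals, the Mx1 promoter is active in many tissues besides HSCs, and the presence of cre and the loss of Mitol cannot be told apart. The comparison asked whether activating and repressive E2Fs differed between the genotypes. Nothing in the labels says whether a library came from 1 mouse or from several, so the p-values measure the spread between these libraries.

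E2F factors bind DNA mostly as dimers with a DP partner and switch on the genes that carry a cell from G1 into DNA synthesis. E2f1, E2f2 and E2f3 encode activators, which the RB protein binds and silences until cyclin-dependent kinases phosphorylate it, whereas E2f4 and E2f5 encode repressors that act with the pocket proteins p107 (Rbl1) and p130 (Rbl2), in quiescent cells as part of the DREAM complex with the MuvB core. E2f6 represses without a pocket protein, and E2f7 and E2f8, the atypical members, repress without a DP partner. Long-term HSCs are known for resting in G0, and the pocket proteins are known to hold them there.

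The gene that encodes MITOL, Marchf5, did not separate the libraries by its total count, at 232 to 308 normalized counts in MitolΔ/Δ HSCs and 262 to 333 in control HSCs (log2 fold change -0.15, edgeR quasi-likelihood test with Benjamini-Hochberg adjustment, adjusted p = 0.498), and a count per gene cannot single out deleted exons. Library totals ran from 7214935 to 12398138. Here and below, a normalized count is a count divided by the library's DESeq2 size factor, log2 fold changes are MitolΔ/Δ over control with their standard error, n is 4 libraries per group, and a gene is called changed at an adjusted p under 0.05. The 9 markers of HSCs reported here were in the table and passed the filter, and 2 of them were called lower by edgeR (Hlf and Kit, the gene of the c-Kit in the gate). Slamf1 and Ly6a were higher, by 0.56 and 0.76 on the log2 scale. DESeq2 called both (adjusted p = 0.0125 and 0.0113) and edgeR neither (adjusted p = 0.0501 and 0.0605). The summed level of the 9 was 19117 to 22576 normalized counts in MitolΔ/Δ and 27310 to 32514 in control HSCs. Most of this sum came from the 2 called genes, so it says little of the others. Kit had 7057 ± 1123 against 11706 ± 1511 counts and Hlf 5573 ± 646 against 9505 ± 1078. Among 3 multipotent progenitor markers, Cd48, which the sort selects against, rose from 11.8 ± 7.24 to 39.6 ± 17.4 normalized counts (edgeR, adjusted p = 0.0450). This call was lost without any single library other than MitolΔ/Δ replicate 4 and control replicate 3 (adjusted p from 0.0836 to 0.138), and the summed level of the 3 was 2492 to 2664 against 2113 to 2428. The part of these markers in the results was not tested.

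Letters that E2F dimers are known to favour stand in the promoters of several of the 10 genes. RefSeq promoter windows, from 250 bases before the start site to 50 after it, were matched for 7 genes in 9 windows and have no entry for E2f4, E2f5 and Rb1. An E2F core was searched on both strands as TTCCCGC, and also with the letters TTGGCGC, with those of TTCGCGC, or with the run TTGCCGC in its place. It stood in 5 of the 9 windows, 1 each of E2f2, E2f3, E2f7, E2f8 and Rbl1, against 9.57% of all 32851 windows. E2f7 held 3 matches, at positions -223, -198 and -92 from the start, and E2f3 held 2. The match of E2f2 stood at position 41, after the start, and the 30 bases shown for it are the last of that window. No match stood in the windows of E2f1 and E2f6. The E2f1 window (154411297 to 154411596, minus strand) lies inside the GENCODE gene, which runs to 154411812. Bases upstream of that end were not searched. The RefSeq starts of E2f8 and Rbl1 also lie inside their GENCODE genes, which run to 48531452 and 157046475. Part of the stretch shown for each is therefore inside the gene, and so is the marked core of Rbl1. The CHR element, TTTGAA on either strand, is the letters known to recruit MuvB complexes and stood in 17.9% of all windows. It was found in a window each of E2f2 and E2f3 and, at -20, of E2f8. The sequences shown are from the genes called higher in MitolΔ/Δ HSCs that held an E2F core, 5′ to 3′ on the gene's strand and with the core in capitals, from the RefSeq table of GRCm38.p6 and placed on GRCm39 by exact match.
E2f2, 30 bases downstream of the start, chr4:135899605-135899634, plus strand: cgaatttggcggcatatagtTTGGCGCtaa
E2f7, 250 bases before the start, chr10:110581050-110581299, plus strand: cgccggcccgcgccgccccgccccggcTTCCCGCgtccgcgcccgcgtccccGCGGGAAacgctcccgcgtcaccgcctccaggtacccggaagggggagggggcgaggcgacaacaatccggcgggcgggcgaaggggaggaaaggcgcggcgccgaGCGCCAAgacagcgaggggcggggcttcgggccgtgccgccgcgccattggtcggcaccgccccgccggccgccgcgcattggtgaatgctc
E2f8, 250 bases before the start, chr7:48531345-48531594, minus strand: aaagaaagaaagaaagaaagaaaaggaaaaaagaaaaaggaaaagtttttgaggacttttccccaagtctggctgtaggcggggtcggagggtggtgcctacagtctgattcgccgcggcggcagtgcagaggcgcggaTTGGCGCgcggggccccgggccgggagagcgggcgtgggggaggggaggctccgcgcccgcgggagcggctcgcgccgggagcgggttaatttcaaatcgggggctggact
Rbl1, 250 bases before the start, chr2:157046455-157046704, minus strand: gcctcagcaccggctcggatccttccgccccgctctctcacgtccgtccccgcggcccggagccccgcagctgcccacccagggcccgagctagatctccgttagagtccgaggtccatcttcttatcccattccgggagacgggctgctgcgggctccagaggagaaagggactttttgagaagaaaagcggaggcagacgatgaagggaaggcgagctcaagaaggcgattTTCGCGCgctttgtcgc
A match describes the letters of the window and not a bound site, and a window without one says nothing of the factor.

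E2f2, E2f7 and E2f8 rose most in MitolΔ/Δ HSCs, with smaller rises of E2f4 and Rbl1. Of the 10 genes, 9 had a higher and 1 a lower fitted level, and 5 were called higher by edgeR, where 4.68% of all 16444 tested genes were. None was called lower by edgeR, where 3.75% of tested genes were, with 0 at an unadjusted p under 0.05 in that direction (12.8% of tested genes) and 0 by DESeq2 (6.3%). DESeq2 called 7 higher, adding E2f3 and Rb1, against 8.37% of its 15802 tested genes. In 4 genes every MitolΔ/Δ library lay above every control library, against 8.17% of tested genes. The median log2 fold change of the 10 genes was 0.51 and that of all tested genes -0.020. In bulk libraries, fewer cells with an RNA and less of it per cell cannot be told apart. Leaving out 1 library changed the number called. It was 3, 2, 3 and 8 without MitolΔ/Δ replicates 1 to 4, where 1.84%, 1.43%, 1.85% and 8.77% of tested genes were called higher. Without control replicates 1 to 4 it was 4, 3, 3 and 2, against 4.64%, 0.995%, 2.48% and 1.6%. The calls of E2f2 and E2f7 held in all 8 of these fits.

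**Figure D1:**
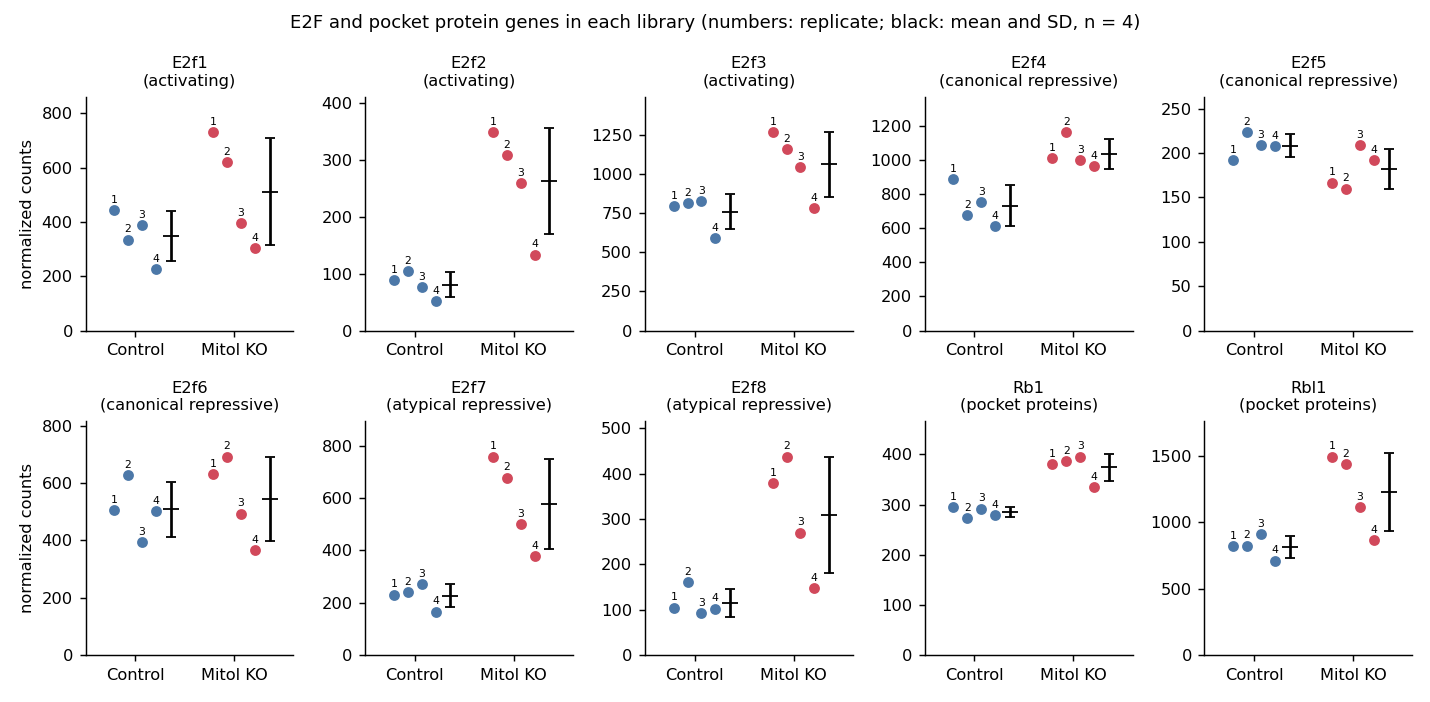
Normalized counts of the 10 genes in each library, control in blue and Mitol KO (MitolΔ/Δ) in red, with the replicate number above each point and the mean and SD (n = 4) in black. The 2 groups do not overlap in E2f2, E2f4, E2f7 and Rb1, and replicate 4 is the lowest red point in 9 of the 10 panels.

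Among the activators, E2f2 (chromosome 4, 135899585 to 135923368 on GRCm39) encodes an E2F known to limit the proliferation of T cells. Its normalized counts were 348, 309, 259 and 133 in MitolΔ/Δ replicates 1 to 4 and 88.4, 104, 76.3 and 52.1 in control replicates 1 to 4. All 4 MitolΔ/Δ libraries lay above all controls, replicate 4 closest to them. The change was 3.24-fold (log2 1.70, standard error 0.29, edgeR, adjusted p = 0.00844, 2-sided exact permutation test p = 0.0286, the smallest that 4 against 4 can give), the largest of the 10. E2f1 (chromosome 2, 154401326 to 154411812) encodes the best-known activator, which can also drive apoptosis. Its counts were 730, 620, 395 and 303 against 444, 335, 387 and 225. MitolΔ/Δ replicates 1 and 2 were above every control and replicates 3 and 4 within the control range. The log2 fold change was 0.54 with a 95% interval from -0.026 to 1.11 (edgeR, adjusted p = 0.210), and without MitolΔ/Δ replicate 4 it was 0.75 (adjusted p = 0.0453). E2f3 (chromosome 13, 30090558 to 30170046) encodes an activator whose locus also makes a shorter form, which counts per gene do not separate. It had 1269, 1160, 1044 and 786 against 798, 817, 831 and 594 counts. MitolΔ/Δ replicate 4 fell within the control range and the other 3 lay above it. The log2 fold change was 0.47 (standard error 0.15, edgeR, adjusted p = 0.0682), while DESeq2 gave an adjusted p of 0.0279 and edgeR without MitolΔ/Δ replicate 4 gave 0.00848.

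Of the canonical repressors, E2f4 was the only one called. E2f4 (chromosome 8, 106024243 to 106032003) encodes the main E2F of quiescent cells. Its normalized counts were 1013, 1163, 1001 and 966 in MitolΔ/Δ HSCs and 888, 676, 754 and 612 in control HSCs. All MitolΔ/Δ libraries lay above all controls, and E2f4 rose by 0.48 on the log2 scale (standard error 0.12, edgeR, adjusted p = 0.0296, DESeq2 adjusted p = 0.00333). The call was lost without any 1 of MitolΔ/Δ replicates 1, 2 and 3 or of control replicates 2, 3 and 4, with adjusted p from 0.0603 to 0.0898 and log2 fold changes between 0.41 and 0.51. E2f5 (chromosome 3, 14643676 to 14672404), its closest relative, was the only one of the 10 with a lower level. It had 167, 160, 209 and 193 counts against 193, 223, 209 and 208. The groups overlapped, the log2 fold change was -0.21 (95% interval -0.53 to 0.099, edgeR, adjusted p = 0.373), and exons of E2f5 overlap those of Rbis on the opposite strand. E2f6 (chromosome 12, 16860874 to 16890766) encodes a repressor that works with a Polycomb complex. It had 631, 692, 493 and 365 counts against 506, 628, 395 and 503. The groups overlapped widely, with the lowest of all 8 values in a MitolΔ/Δ library, and the log2 fold change was 0.085 (95% interval -0.33 to 0.50, edgeR, adjusted p = 0.817).

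Both atypical repressors, which are themselves known targets of the activators and curb them in return, rose. E2f7 (chromosome 10, 110581300 to 110623245) had 758, 679, 500 and 378 normalized counts in MitolΔ/Δ HSCs and 231, 242, 269 and 165 in control HSCs. The lowest MitolΔ/Δ library was above the highest control library. The change was 2.52-fold (log2 1.33, standard error 0.21, edgeR, adjusted p = 0.00634, exact permutation p = 0.0286), and E2f7 ranked 90 among all tested genes by p. E2f8 (chromosome 7, 48516176 to 48531452) had 380, 437, 270 and 147 counts against 104, 161, 92.3 and 102. MitolΔ/Δ replicate 4 lay below control replicate 2, and the other 3 MitolΔ/Δ libraries were above every control. The change was 2.65-fold (log2 1.41, standard error 0.30, edgeR, adjusted p = 0.0183, exact permutation p = 0.0571). The call was narrowly lost without MitolΔ/Δ replicate 2 (adjusted p = 0.0517) and without control replicate 4 (adjusted p = 0.0545). The E2f8 locus overlaps the noncoding Gm2788 on the opposite strand, which had 22.4 ± 16.8 normalized counts in MitolΔ/Δ and 19.3 ± 14.8 in control HSCs.

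Of the pocket proteins, p107 RNA rose and RB RNA was higher without passing the test. Rbl1 (chromosome 2, 156987813 to 157046475) encodes p107, which is known to be made under E2F control and to bind mainly the repressive E2Fs. It had 1493, 1437, 1111 and 864 normalized counts in MitolΔ/Δ HSCs and 818, 823, 912 and 710 in control HSCs. Replicate 4 of MitolΔ/Δ was within the control range. The log2 fold change was 0.57 (standard error 0.15, edgeR, adjusted p = 0.0416, DESeq2 adjusted p = 0.00776), but the edgeR call was lost on leaving out any single library other than MitolΔ/Δ replicate 4, with adjusted p from 0.0620 to 0.115. Rb1 (chromosome 14, 73421113 to 73563507) encodes the retinoblastoma protein. Its counts of 381, 387, 395 and 334 lay wholly above the control counts of 295, 273, 292 and 279, with little spread in either group. The log2 fold change was 0.38 (standard error 0.11, edgeR, adjusted p = 0.0532, DESeq2 adjusted p = 0.0142), and edgeR gave 0.0218 without MitolΔ/Δ replicate 4. Exons of Rb1 overlap Rcbtb2 and Lpar6 on the opposite strand, and Lpar6 fell (log2 fold change -0.57, edgeR, adjusted p = 0.0327). The strand setting of the counting is not given in the sources used here, so reads shared with such neighbours, and with the pseudogene Gm14277 opposite Rbl1, cannot be told apart. The remaining pocket protein gene Rbl2, which encodes the p130 of resting cells and is not among the 10, moved the other way, from 1078 ± 91.6 to 858 ± 27.5 normalized counts with no overlap. Its log2 fold change was -0.35 (standard error 0.090, edgeR, adjusted p = 0.0356), and this call held in 2 of the 8 fits with a library left out, without MitolΔ/Δ replicate 4 and without control replicate 1 (adjusted p up to 0.104 in the others). It was also lost with no expression filter (adjusted p = 0.0573).

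**Figure D2:**
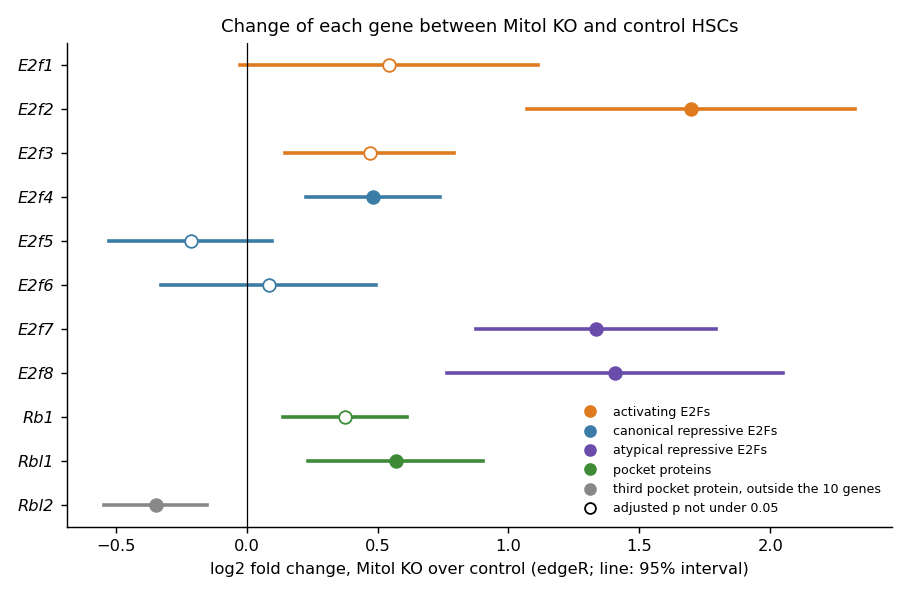
Log2 fold changes of the 10 genes and of Rbl2, Mitol KO over control, with 95% intervals from edgeR, coloured by role, where filled points have an adjusted p under 0.05. E2f2, E2f7 and E2f8 lie between 1.33 and 1.70, E2f5 and Rbl2 lie below 0.

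The changes of activating and repressive E2Fs overlapped, from 0.47 to 1.70 and from -0.21 to 1.41 on the log2 scale. The mean log2 fold change was 0.90 over the 3 activators and 0.62 over the 5 repressors, a difference of 0.28 that ranged from 0.18 without MitolΔ/Δ replicate 1 to 0.35 without MitolΔ/Δ replicate 4, but the repressors divided into 1.37 for the atypical and 0.12 for the canonical ones. Within a library, the mean log2 CPM of activators minus that of repressors was 0.46, 0.22, 0.16 and -0.049 in MitolΔ/Δ replicates 1 to 4 and 0.12, -0.090, 0.087 and -0.41 in control replicates 1 to 4. The groups overlapped. Ratios between genes of 1 library, which do not depend on the scaling of libraries, were picked after the values were seen and are a description. E2f1 over E2f7 was 0.963, 0.914, 0.789 and 0.801 in MitolΔ/Δ HSCs and 1.93, 1.39, 1.44 and 1.36 in control HSCs. Reads of E2f1 thus outnumbered those of E2f7 in every control library and in no MitolΔ/Δ library. These ratios are not scaled to transcript length, so they show a shift and not which RNA was more abundant. Per kilobase of the Ensembl canonical transcript E2f1 stayed above E2f7 in MitolΔ/Δ HSCs, at 187 ± 72.3 against 105 ± 31.3. E2f2 over E2f1 was 0.518 ± 0.0954 against 0.235 ± 0.0534, and Rbl1 over Rbl2 was 1.43 ± 0.363 against 0.761 ± 0.101. Neither ratio overlapped between the groups. Reads of Rbl1 fell short of those of Rbl2 in every control library but exceeded them in 3 of 4 MitolΔ/Δ libraries. Which was higher in control HSCs depends on the length used. Per kilobase of canonical transcript Rbl1 had 166 ± 16.8 and Rbl2 218 ± 18.5 there. With the union of all exons Rbl1 had 111 ± 11.2 and Rbl2 90.9 ± 7.73.

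**Figure D3:**
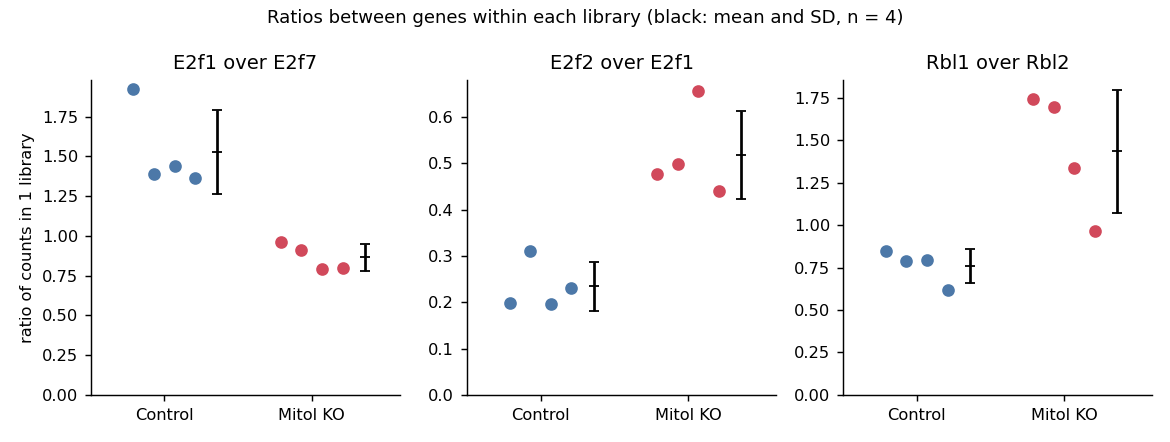
Ratios of counts between 2 genes within each library, for E2f1 over E2f7, E2f2 over E2f1 and Rbl1 over Rbl2, with control in blue, Mitol KO in red and the mean and SD (n = 4) in black. E2f1 over E2f7 lies between 1.36 and 1.93 in control and between 0.789 and 0.963 in Mitol KO libraries.

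Levels were also compared between genes as normalized counts per kilobase of the Ensembl canonical transcript. In control HSCs E2f4 stood highest, at 366 ± 59.4 per kilobase, followed by E2f6 (207 ± 38.9), Rbl1 (166 ± 16.8), E2f3 (149 ± 21.9), E2f1 (127 ± 34.1) and E2f5 (116 ± 7.05). Rb1 (56.9 ± 2.07), E2f7 (41.3 ± 8.03), E2f8 (31.0 ± 8.35) and E2f2 (16.5 ± 4.53) were lowest. Neighbours in the run from E2f6 to E2f5 differed by less than their summed SDs, as did E2f7 and E2f8, whereas E2f4, Rb1 and E2f2 stood farther from theirs. In MitolΔ/Δ HSCs the order kept E2f4 first at 518 ± 43.5 and E2f2 last at 54.0 ± 19.2, while E2f7 rose to 105 ± 31.3, near E2f5 at 102 ± 12.7. Of the 8 E2Fs summed per kilobase, the atypical E2f7 and E2f8 made up 12.4% ± 2.24 in MitolΔ/Δ and 6.84% ± 0.799 in control HSCs, the activators 30.0% ± 3.82 and 27.6% ± 3.05, and the canonical repressors 57.6% ± 5.89 and 65.6% ± 3.25. The atypical share did not overlap between the groups. The order depends on the length used. With the union of all exons in place of the canonical transcript E2f3 (140 ± 20.6) stood above E2f4 (127 ± 20.6) in control HSCs and E2f6 dropped to 42.3 ± 7.94, and the atypical share was 14.9% ± 2.26 against 8.76% ± 1.04, again without overlap.

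The partners and regulators of E2F changed unevenly. Of 9 DP and MuvB genes, 1 was called higher and 1 lower (edgeR, against 4.68% and 3.75% of all genes), with a median log2 fold change of 0.34. DESeq2 called 4 higher and 1 lower (8.37% and 6.3% of its tested genes), and 6 of the 9 had an unadjusted p under 0.05 by edgeR (26.4% of all genes). The first was Mybl2, the MYB factor that joins MuvB once cells divide, at 492 ± 221 against 190 ± 47.8 normalized counts (log2 fold change 1.36, adjusted p = 0.0209), and the other was Rbl2. Of 10 G1 cyclins and kinases, 4 rose and 1 fell. Ccne1, the cyclin E that turns on CDK2, had 154, 159, 120 and 122 counts in MitolΔ/Δ and 40.9, 38.3, 51.8 and 46.7 in control HSCs, so the groups stood far apart (log2 fold change 1.62, edgeR, adjusted p = 0.00344). Cdk6, a cyclin D kinase of blood progenitors that phosphorylates RB, had 9416, 11244, 16972 and 19069 against 5302, 5177, 5291 and 5301 counts. Its groups did not overlap and its highest MitolΔ/Δ library was replicate 4 (log2 fold change 1.41, edgeR, adjusted p = 0.00381). Ccna2 and Cdk4 also rose (log2 fold changes 1.90 and 0.52), whereas Ccnd2, a cyclin D, fell by 0.65 on the log2 scale (edgeR, adjusted p = 0.0177). The lists share genes, as Ccna2 is also counted among the G2/M genes below and Ccne1 among the G1/S targets. Of 7 CDK inhibitors, 5 were tested, Cdkn2a and Cdkn2b not being analysed here. Cdkn1a, which encodes p21, rose from 93.0 ± 69.2 to 369 ± 48.4 counts, and Cdkn1c, which encodes the p57 of quiescent HSCs, fell from 127 ± 22.2 to 67.9 ± 16.1 (edgeR, adjusted p = 0.0170 and 0.0265). Leaving out 1 library ended the call of Mybl2 (without MitolΔ/Δ replicate 1 or 2 or control replicate 2 or 4, adjusted p up to 0.0610), of Cdk4 (without any but MitolΔ/Δ replicate 4 and control replicate 1, up to 0.0886), of Ccnd2 (without MitolΔ/Δ replicate 3 or control replicate 2, up to 0.0608) and of Cdkn1c (without MitolΔ/Δ replicate 1 or 3 or control replicate 2 or 4, up to 0.0763).

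Genes that E2Fs are known to drive were higher throughout. Of 45 G1/S targets 44 were tested, all 44 had a higher level in MitolΔ/Δ HSCs, and 18 were called higher and 0 lower by edgeR (0 lower at an unadjusted p under 0.05, and 28 higher and 0 lower by DESeq2), with a median log2 fold change of 0.75. Those with the lowest p were Ccne1, Rrm2 (log2 2.18), the ribonucleotide reductase subunit made in S phase, Mcm10 (1.21), which helps start replication, and Brca1 (1.22), which serves DNA repair. The calls of Mcm10 and Brca1 were lost without MitolΔ/Δ replicate 2, control replicate 2 or control replicate 4 (edgeR, adjusted p up to 0.0567). Of 30 G2/M genes known to be repressed by DREAM, all 30 were higher, 26 were called higher and 0 lower (0 lower at an unadjusted p under 0.05, and 28 higher and 0 lower by DESeq2), with a median of 1.43. Kif20a, Bub1b, Cdc20 and Tpx2, which serve the spindle, its checkpoint and the exit from mitosis, rose by log2 1.44, 1.36, 1.46 and 1.67. In the promoter windows of these lists the E2F core stood in 26 of 39 windows of G1/S genes (66.7%) and 6 of 26 of G2/M genes (23.1%), against 9.57% of all windows. The CHR element stood in 5 of 39 (12.8%) and 19 of 26 (73.1%), against 17.9% of all. Over 9 lists of partners, regulators and targets, which held 124 tested genes besides the 10, 50 were called higher and 4 lower by edgeR. Over all tested genes, edgeR called 4.68% higher and 3.75% lower, and DESeq2 8.37% and 6.3%. By edgeR, 12.8% were lower at an unadjusted p under 0.05. Without MitolΔ/Δ replicates 1 to 4 in turn, 20, 17, 30 and 81 of the list genes were higher and 1, 2, 0 and 6 lower. Without control replicates 1 to 4 in turn, 44, 14, 36 and 20 were higher and 5, 0, 2 and 1 lower.

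**Figure D4:**
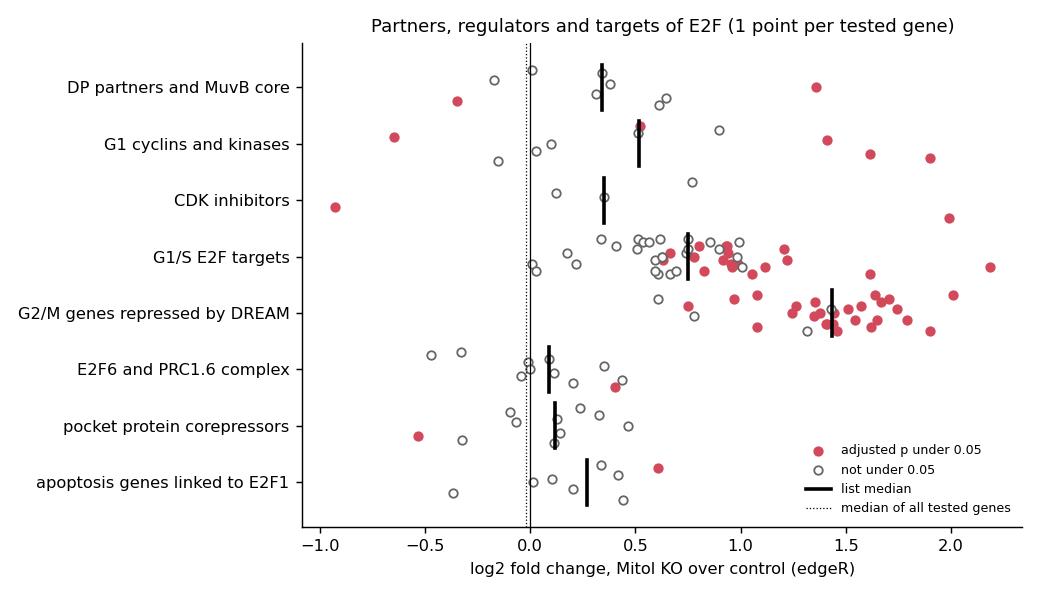
Log2 fold change, Mitol KO over control, of each tested gene in 8 lists, red where the edgeR adjusted p is under 0.05, with the list median as a thick bar and the median of all tested genes as a dotted line. The medians are 1.43 for G2/M genes and 0.75 for G1/S targets, and 0.091 for the E2F6 complex and 0.12 for the corepressors.

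Genes tied to single E2Fs or to repression by pocket proteins were counted in the same way, beside 4.68% of all genes called higher and 3.75% lower. Of 11 genes of the E2F6 Polycomb complex 1 rose by edgeR, L3mbtl2 (log2 fold change 0.40, edgeR, adjusted p = 0.0481), with a list median of 0.091. DESeq2 called 3 of the 11 higher and 0 lower (8.37% and 6.3% of its tested genes). By edgeR 5 had an unadjusted p under 0.05 in either direction (26.4% of all genes). The edgeR call of L3mbtl2 was lost without each library except MitolΔ/Δ replicate 4 (adjusted p up to 0.134) and with no expression filter (0.0513). Of 11 germline genes that E2F6 silences, 4 were in the table and 1 was tested, Stag3, at 94.9 ± 74.7 against 69.1 ± 13.3 counts (log2 fold change 0.45, edgeR, adjusted p = 0.550). Its direction turned without MitolΔ/Δ replicate 1 (-0.25). Of 10 corepressors of pocket proteins none rose by edgeR, while DESeq2 called 2 higher and 2 lower, with 5 at an unadjusted p under 0.05 in either direction, and Arid4a, an RB-binding protein, fell by 0.53 on the log2 scale (edgeR, adjusted p = 0.0358; lost without MitolΔ/Δ replicates 1, 2 or 3 or control replicates 2, 3 or 4, up to 0.107). Of 8 tested apoptosis genes linked to E2F1, 7 had a higher level (list median 0.27), 4 an unadjusted p under 0.05, and 1 rose by the edgeR test, Bcl2l11, which encodes BIM, from 204 ± 22.5 to 314 ± 30.0 counts (edgeR, adjusted p = 0.0212), and 2 rose by DESeq2. The call of Bcl2l11 was lost without MitolΔ/Δ replicate 1, control replicate 2 or control replicate 3 (edgeR, adjusted p up to 0.0618).

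The 10 genes did not vary independently across libraries. In MitolΔ/Δ HSCs replicate 4 was lowest for 9 of them, all but E2f5, and in control HSCs replicate 4 was lowest for 6. The summed counts of the 2 cell cycle lists moved with them in part. Those of the G1/S targets were 71733, 74577, 46919 and 35354 in MitolΔ/Δ and 40623, 34292, 32668 and 25098 in control HSCs. Those of the G2/M genes were 26495, 24853, 21256 and 13809 against 6189, 5969, 13308 and 9535. Replicate 4 was thus also the lowest MitolΔ/Δ library in both sums, and lowest of the controls in the G1/S sum, while the G2/M sum of the controls was highest in replicate 3. Mki67, the Ki-67 proliferation marker, overlapped between the groups, at 1991 to 3906 counts in MitolΔ/Δ and 1050 to 2158 in control HSCs (edgeR, adjusted p = 0.0197, and up to 0.0664 without MitolΔ/Δ replicate 1 or 2 or control replicate 2). The part of the number of dividing cells in the changes of the 10 genes was not tested.

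Markers of other blood cells were looked at beside these results. Gata1, an erythroid and megakaryocyte factor, rose from 21.5 ± 10.9 to 212 ± 103 counts, the only edgeR call among 5 tested of 11 erythroid markers. Of these 5, 4 had a higher level and 3 an unadjusted p under 0.05 by edgeR (26.4% of all tested genes). The sum of the 7 in the table lay between 4542 and 4979 in MitolΔ/Δ and 4183 and 6336 in control HSCs. The megakaryocyte markers had 5 tested of 6 and 1 call, a fall of Pf4 that was lost without MitolΔ/Δ replicate 2 or 3 or control replicate 4 (edgeR, adjusted p up to 0.0641), with sums of 2456 to 5202 and 3269 to 4933. Neutrophil and monocyte markers had 3 tested of 10 with sums of 559 to 1053 and 446 to 674, B-lineage markers 1 of 8 with sums of 136 to 150 and 145 to 204, and T-lineage markers 2 of 7 with sums of 189 to 259 and 172 to 200. None of these 6 was called by edgeR, with 1 neutrophil and monocyte marker called by DESeq2 and at an unadjusted p under 0.05 (Prtn3). The sums cover the markers in the table. It held 9 of the 10 neutrophil and monocyte, 4 of the 8 B-lineage and 3 of the 7 T-lineage markers. No row of the table had a sum under 11 counts over the 8 libraries, so a marker at 0 in every library could not appear in it. The part of these markers in the changes of the 10 genes was not tested.

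Among the genes whose log2 CPM over the 8 libraries followed E2f7 most closely, of 10223 tested genes of at least 100 mean normalized counts, were Impdh2 (Pearson r 0.995) and Asf1b (0.987). Those closest to E2f4, the highest per kilobase of canonical transcript but not of all exons, were Clptm1l (0.984), Yeats4 (0.984) and Nedd8 (0.983). The 8 libraries hold both genotypes, so any gene that differs between them takes part in such a likeness.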

How the data were processed

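RNA-seq was measured in 8 libraries of 100 HSCs. The authors used STAR (genome mm39), samtools and subread, and deposited raw counts per gene in 1 table. The annotation and strand setting are not given in the sources used here. Of 23094 rows, 1029 carried no symbol (0.335% to 0.467% of a library's counts) and were left out. The main test was edgeR's quasi-likelihood F test (version 4.0.16), run on the deposited counts of all named genes with TMM, its default expression filter and Benjamini-Hochberg adjustment, with genotype as the only term. DESeq2 (version 1.42.0) gave the size factors and an alternative test. Exact permutation tests were 2-sided over 70 arrangements. log2 CPM used a prior count of 2. Positions and lengths came from GENCODE vM39 on GRCm39, where 20368 of 22065 symbols matched. The fits were tested on simulated counts.

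Members and lists were chosen with earlier results of these data known. Named genes were the 10 members, Marchf5, up to 4 genes of lowest p in each direction in each list, and the 3 most like E2f7 and E2f4. Some genes these rules and lists hold are not reported here. Rbl2 and Mki67 were named beside them, and overlapping neighbours after their values were seen. As alternatives, size factors, no filter, DESeq2, the replicate block and each library left out were tried. Precision is limited by library totals and by the 100 cells per library, from which amplified reads without identifiers were counted.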

Additional observations from a re-analysis of the deposited data

Results flagged for a closer look

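Of 138 groups of 4 libraries checked for a value far from the other 3, 8 had one, and chance gives about 1 in 20. E2f3 was lowest in a control library at 594 normalized counts, and the summed activating E2Fs in a control library at 871. Cdk6 was lowest in a control library at 5177, within a narrow control range. Bcl2l11 was highest in a MitolΔ/Δ library at 358, and Hlf lowest in one at 4609. Csf1r was highest in a control library at 58.0. The summed pocket protein corepressors were highest in a MitolΔ/Δ library at 16254, and the summed megakaryocyte markers in a control library at 4933.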

How the results depend on the processing

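With single libraries left out, 359 to 2501 genes passed, 2 to 8 of the 10 genes were called higher and 0 lower, and 14 to 81 list genes were higher and 0 to 6 lower. The log2 fold changes ran from 0.32 to 0.75 for E2f1, 0.37 to 0.61 for E2f3, 0.41 to 0.60 for E2f4, 1.20 to 1.66 for E2f8, 0.36 to 0.44 for Rb1 and 0.47 to 0.72 for Rbl1. E2f6 turned direction (-0.042 to 0.25; -0.019 without control replicate 3), as did Csf1r (-0.13 to 0.32; -0.041 without MitolΔ/Δ replicate 2) and Stag3 (-0.25 to 0.76). DESeq2 called 2317 genes against 1386, and E2f3 (0.48) and Rb1 (0.39) passed. Rb1 (0.39) also passed in edgeR with DESeq2 size factors. With no expression filter 5 of the 10 were called higher, against 3.47% of genes. For single genes named in lists or beside them, 387 values kept their direction and side of the threshold, 75 lost the call and 3 gained it. The cause of these shifts was not tested, and fits without a library use fewer samples. With the replicate number as a block 1652 genes passed, 6 of the 10 were called higher (5.82% of genes), E2f3 passed (0.46, adjusted p = 0.0191 by edgeR) and L3mbtl2 did not (adjusted p = 0.0596). Deviations of same-numbered libraries correlated at 0.0800, -0.0695, 0.0529 and 0.0669, and not every library correlated best with its own number. These weak correlations do not show that the numbers pair the libraries, and they cannot exclude it.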
